A study of Drosophila melanogaster with 2 samples.

Results

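Embryonic patterning genes divide the fly embryo into regions, and the Hox genes give its segments their identity. The 38 genes described here were given as a list of symbols out of 13945 protein-coding genes on the nuclear chromosomes, and all 38 were found in the annotation. They comprised 7 gap genes, 9 pair-rule genes, 3 segment polarity genes, 6 genes of dorsoventral patterning, 5 genes of the caudal, Sox and POU families, and the 8 Hox genes. No measured value entered their choice, although results of these data were known when the list was drawn up.

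The protein followed was TFAM, the HMG-box protein that coats and compacts mitochondrial DNA. Chromatin immunoprecipitation and sequencing were performed on whole Drosophila melanogaster embryos of mixed sex, aged 0 to 16 h, from a stable transgenic line with GFP fused to the C terminus of TFAM. The 2 samples formed 1 group, biological replicates 3 and 4, each from its own biosample. Both were sonicated, with a fragment range of 200 to 800 bp. The labels disagree on the antibody, which is GFP in the descriptions and TFAM in the antibody field. What drives the transgene is not stated, and no untagged embryos were analysed here, so the values below have no background measured in the same way beside them. With 1 group there was no contrast between conditions, and the genes are described by counts and by both replicates' values, without a test.

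In the embryo, maternal gradients switch on gap genes in broad bands, gap proteins set the stripes of pair-rule genes, and pair-rule proteins set the segment polarity genes. The Hox genes, gathered in the Antennapedia and bithorax complexes, are then expressed in successive domains along the body axis. Many of these genes are controlled by enhancers that lie several kilobases from the start site. Whole embryos mix many cell types and ages, so a region bound in a few cells and a region bound weakly in many cannot be told apart.

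The data are lists of regions on the dm6 build. Each region has a summit, the base with the strongest signal, and a value that the authors' peak caller assigned against a control alignment. The value has no upper limit and its scale differs between lists, so ranks within a list are given beside it. The list called on both replicates together, here the pooled list, held 9598 regions, and the lists of replicate 3 and replicate 4 held 13396 and 13455. These 3 lists include background, with q-values (the expected share of false calls) of up to 0.96. At or below a q-value of 0.05 there were 2476 pooled, 3196 replicate 3 and 1717 replicate 4 regions. The thresholded list held the 1290 pooled regions that the authors kept for reproducible ranks between replicates, of which 1268 lay on nuclear chromosomes with values of 92.4 to 837 and a median of 130. The other 22 lay on the mitochondrial genome, where the highest value was 22009. Without read counts in these files, the sequencing depth behind the values is unknown.

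None of the 38 patterning and Hox genes had a thresholded peak with its summit within 500 bp of any of its annotated start sites. Over all protein-coding genes, 5.35% had a thresholded summit at a start site, which is 746 genes. The 38 genes were also without a start-site summit among pooled regions at a q-value of 0.05 or less, where 9.47% of all genes had such a summit. At the same q-value the count was 0 in replicate 3, against 11.9% of all genes, and 0 in replicate 4, against 6.81%.

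Peaks were found further away. In the gene body, 5 members (13.2%) held a thresholded summit, namely dpp, sog, cad, lab and Antp, beside 4.37% of all genes. In the locus, taken as the gene body with 10 kb on either side, 9 members (23.7%) held one, beside 27.4% of all genes. These were the same 5 genes with slp1, slp2, zen and abd-A. The share for the locus was thus near that of all genes, while the share for the body was above it.

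Gene length differed between the members and the genome, and long bodies hold more summits by length alone. The members had a median length of 6.75 kb, from 1.33 kb to 103 kb, against 2.17 kb for all protein-coding genes. Among genes of 10 kb or more, 5 of 17 members (29.4%) held a thresholded summit in the body, against 19% of all 1977 genes of that length. With pooled regions at a q-value of 0.05 or less the count was 6 of 17 (35.3%), against 31% of all such genes. Among genes under 10 kb, 0 of 21 members held a thresholded summit in the body, against 1.96% of all 11968 genes of that length. The bodies of the members held 0.896 thresholded summits per 100 kb, and the bodies of all protein-coding genes held 0.858.

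**Figure D1:**
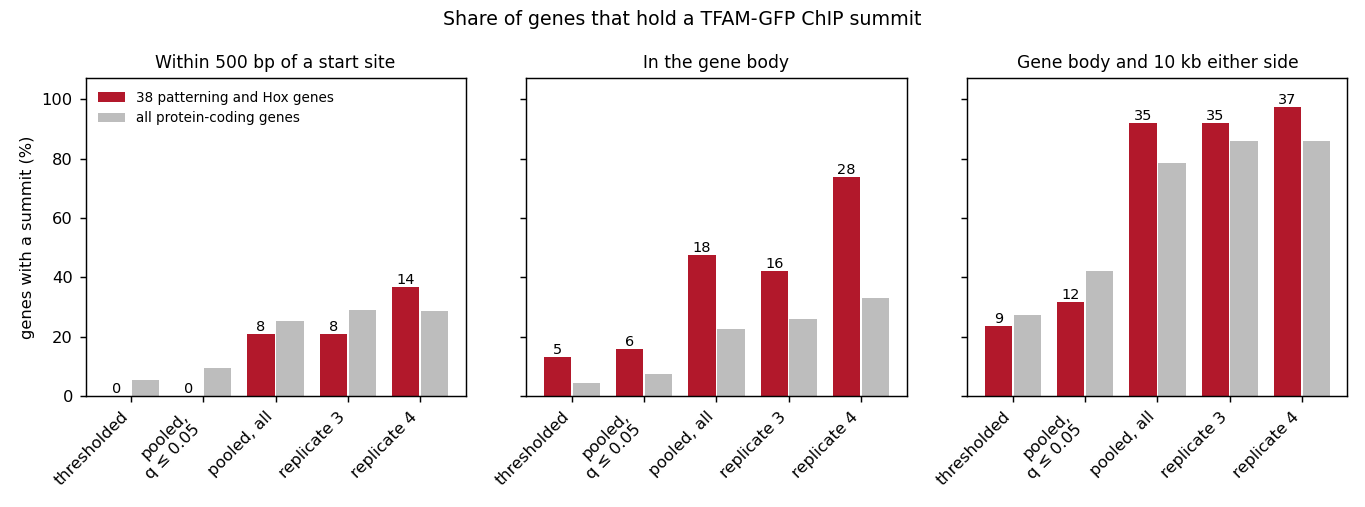
Share of genes (%, vertical axes from 0) with a summit within 500 bp of a start site, in the gene body, or in the body with 10 kb on either side, for 5 sets of regions. Red bars are the 38 patterning and Hox genes with their count above, and grey bars are all 13945 protein-coding genes. At start sites the red bars are at 0 for the thresholded list and for pooled regions at a q-value of 0.05 or less, where the grey bars are at 5.35% and 9.47%.

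The 38 loci overlapped in places and merged into 35 stretches of 1405 kb, which held 11 thresholded summits, or 0.783 per 100 kb. The nuclear chromosomes held 0.947 per 100 kb, and the loci of all protein-coding genes held 1.04. The 11 peaks had a median value of 110 and a median rank of 895 of 1268, against a median value of 130 over all nuclear thresholded peaks. Of the 11, 3 were above the median rank of the list (634.5), those by slp2, beyond abd-A and in sog. The summits lay between 2167 and 29252 bp from the nearest start site of the member. Relative to the nearest start site of any gene, the median distance was 4010 bp for the 11 peaks and 533.5 bp for all 1268.

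By position, 6 of the 11 summits (54.5%) were intronic, 3 (27.3%) were intergenic and 2 (18.2%) were within 500 bp of the start site of a gene that was not a member. Over all nuclear thresholded summits, 36.6% were intronic, 12.3% intergenic, 2.52% exonic and 48.6% within 500 bp of a start site. All 6 intronic summits were in introns of the members themselves.

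**Figure D2:**
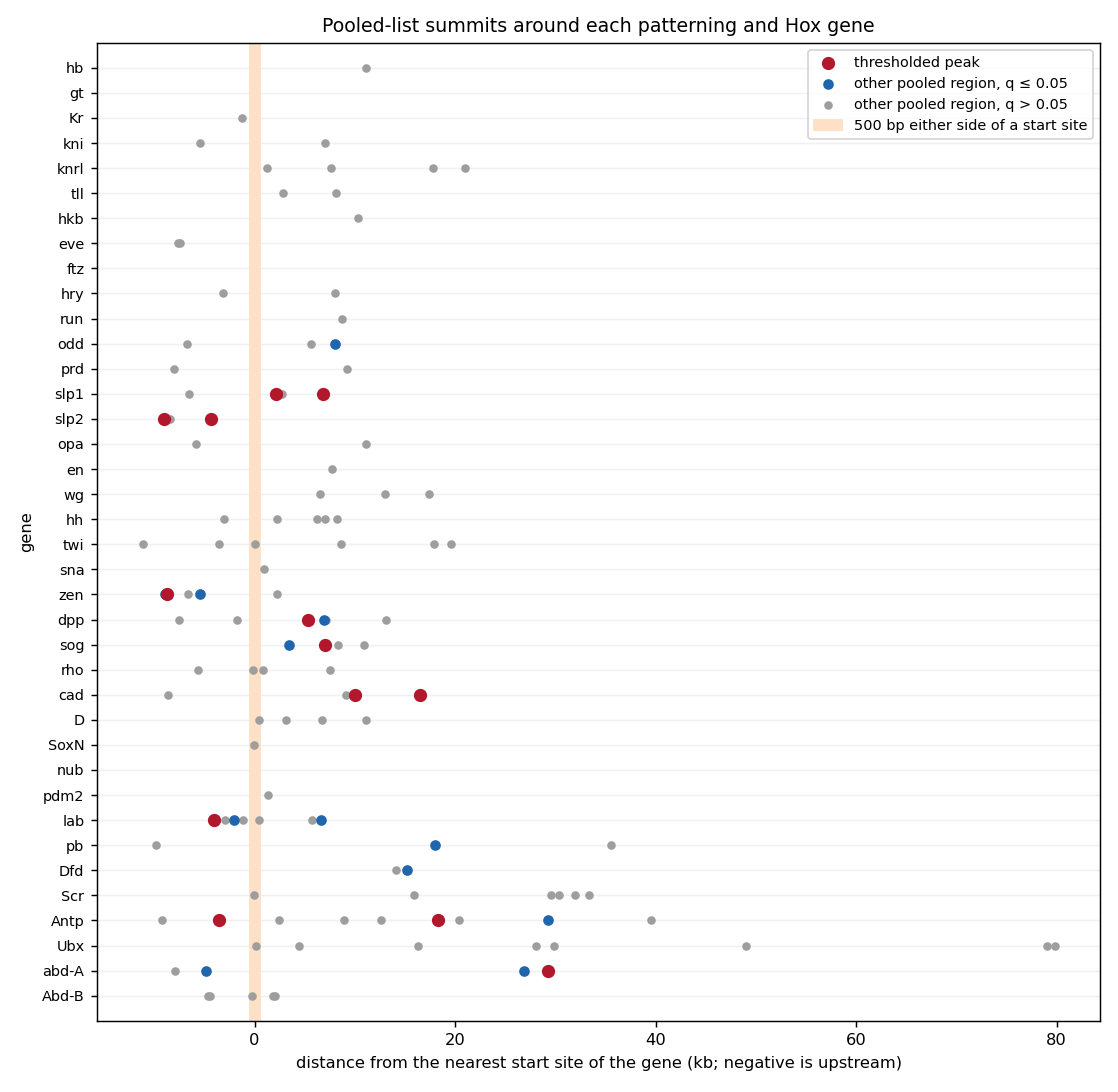
Position of each pooled-list summit in the locus of each of the 38 genes, as distance in kb from the nearest start site of that gene (horizontal axis, negative upstream). Red points are thresholded peaks, blue points other pooled regions at a q-value of at most 0.05, grey points the rest, and the band marks 500 bp on either side of a start site. No red or blue point falls in the band, and gt, ftz and nub have no point.

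The highest of the 11 peaks belonged to the pair-rule genes. slp1 and slp2, neighbouring genes for a pair of forkhead transcription factors, shared 2 intergenic thresholded peaks. The first was chr2L:3832455-3832611, between the genes, with its summit 4314 bp upstream of the slp2 start. It had a value of 300 in the thresholded and pooled lists and ranked 78 of 1268. Replicate 3 gave it 114 (rank 167, q = 0.0064) and replicate 4 gave it 181 (rank 47, q = 0.013). At 157 bp it was narrower than the other 10 peaks, which were all 390 bp wide. The second, chr2L:3827647-3828036, had its summit 2167 bp downstream of the slp1 start and 743 bp past the end of slp1. Its value was 110, with 66.6 in replicate 3 (rank 621) and 44.5 in replicate 4 (rank 1661, q = 0.048). Both peaks were thus present in both replicates, with the first far higher in each.

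The sequences under these 2 peaks are shown because they differ in base composition and in the motifs they hold. Each is 201 bases of the plus strand centred on the summit, from the RefSeq Release 6 genome, with motifs in capitals. In the first, over chr2L:3832426-3832626, the capitals mark 2 copies of GGTCACACT, the core promoter element known as Motif 1. In the second, over chr2L:3827742-3827942, they mark TAATTA, a core that many homeodomain proteins bind.
slp2 upstream peak: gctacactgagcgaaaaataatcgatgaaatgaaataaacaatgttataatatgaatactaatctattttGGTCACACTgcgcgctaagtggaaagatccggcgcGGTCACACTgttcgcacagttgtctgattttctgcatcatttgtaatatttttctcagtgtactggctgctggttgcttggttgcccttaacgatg
slp1 downstream peak: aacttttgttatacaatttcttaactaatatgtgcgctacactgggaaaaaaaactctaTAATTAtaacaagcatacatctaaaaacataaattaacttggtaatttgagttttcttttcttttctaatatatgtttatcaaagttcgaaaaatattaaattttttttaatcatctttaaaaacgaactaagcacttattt
The first window was 59.7% A+T and the second 78.1%, against medians of 65.7% for the 11 peaks and 64.7% for all nuclear thresholded peaks. The copies of GGTCACACT were centred 26 bases before and 9 bases after the summit, both on the plus strand. Of the 1268 nuclear thresholded windows, 14 (1.1%) held GGTCACACT and 1 held it more than once, which was this one. Of the 14, 13 were among the 616 summits within 500 bp of a start site, and the slp window was the only 1 among the 652 other summits. This motif was added after the sequence had been read.

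The remaining pair-rule genes had no thresholded summit in the locus. The highest pooled region was 86.6 by odd, which encodes a zinc finger repressor, 8069 bp from its start, with 35.5 in replicate 3 (q = 0.0099) and 49.3 in replicate 4 (q = 0.02). It was the closest of this class to the thresholded list. For hry, the gene hairy, which encodes a bHLH repressor, the highest pooled value was 64.8 (q = 0.052). The highest pooled values by opa, prd, run and eve were 54.9, 43.2, 37.7 and 35.6, and no pooled summit lay in the locus of ftz. Since the pooled list had a nuclear median of 46.1, the last 3 of these values were in its lower part.

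Of the 6 dorsoventral genes, sog, dpp and zen had a thresholded peak in the locus, beside 27.4% of all genes. Per 100 kb, the dorsoventral loci held 1.19 thresholded summits, against 1.04 in the loci of all protein-coding genes. sog, which encodes a secreted antagonist of BMP signals, had an intronic peak at chrX:15619305-15619694, with its summit 7040 bp downstream of the nearest sog start. Its value was 133 (rank 598), with 50.2 in replicate 3 (rank 1084) and 85.6 in replicate 4 (rank 374). dpp, which encodes the BMP ligand itself, had an intronic peak at chr2L:2433471-2433860, 5294 bp downstream of a dpp start. Its value was 97.7 (rank 1126), with 48.9 in replicate 3 (q = 0.0064) and 44.8 in replicate 4 (q = 0.045). By rank dpp was higher in replicate 3 (1126, against 1626 in replicate 4), whereas sog was higher in replicate 4 by value and by rank.

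The sog sequence is shown because its peak was the highest inside the body of a member. It covers chrX:15619400-15619600, 201 bases of the plus strand of the RefSeq Release 6 genome, 55.2% A+T, and the capitals mark TATAAA read on the minus strand.
sog intron peak: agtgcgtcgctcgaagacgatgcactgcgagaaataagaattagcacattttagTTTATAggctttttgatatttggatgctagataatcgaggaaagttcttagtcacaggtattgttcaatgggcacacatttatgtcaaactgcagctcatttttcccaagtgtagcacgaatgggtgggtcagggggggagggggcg

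The peak in the locus of zen, a homeobox gene for dorsal tissue, was at chr3R:6762751-6763140 and differed most in rank between replicates. Its value was 105 (rank 974), with 89.3 in replicate 3 (rank 318, q = 0.0064) and 31.9 in replicate 4 (rank 3821, q = 0.32). It was the only one of the 11 with a q-value above 0.05 in a replicate list. The summit lay 8752 bp upstream of zen, in an exon at Ama and lncRNA:CR45593, and 327 bp from the start of lncRNA:CR45593. Of the other dorsoventral genes, the highest pooled values in the locus were 58.7 for twi, 49.1 for rho and 40.3 for sna. twi and sna encode the regulators of mesoderm and rho encodes a protease that activates EGF signals.

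cad, which encodes a homeodomain protein of the posterior embryo, had 2 thresholded peaks. The first, chr2L:20787225-20787614, lay 4285 bp past the end of cad and 236 bp upstream of the start of Pomp, the gene for a proteasome maturation protein. It had a value of 118 (rank 756), with 66.5 in replicate 3 and 53.1 in replicate 4. The second, chr2L:20780753-20781142, was in an intron, 10054 bp downstream of a cad start, with a value of 108 (rank 915). Replicate 3 gave it 35.9 (rank 2007) and replicate 4 gave it 75.1 (rank 493). The first cad peak was thus higher in replicate 3 and the second in replicate 4. D and SoxN, which encode Sox proteins, had highest pooled locus values of 61.5 (q = 0.069) and 42.7. The POU gene pdm2 had 36.3 and its neighbour nub had no pooled summit.

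No gap or segment polarity gene had a thresholded summit or a pooled region at a q-value of 0.05 or less in its locus. Of all genes, 27.4% and 42.3% had these in the locus. The gap genes encode the transcription factors of the first zygotic bands, and their highest pooled values ran from 36.7 for Kr to 56.4 for tll. Between these were 50.9 for hb, 43.8 for kni, 42.7 for knrl and 40.9 for hkb, and gt had no pooled summit. Among the segment polarity genes, the values were 46.7 for hh, which encodes the Hedgehog ligand, 45.1 for wg, which encodes the Wingless ligand, and 38.5 for en, a homeobox gene. The q-values of these 9 regions ran from 0.14 to 0.86. The loci were not bare in the replicate lists, where gap gene loci held 17 summits in replicate 3 and 24 in replicate 4, and segment polarity loci held 16 and 13. Per 100 kb these were 9.25 and 13.1 for gap genes and 18.4 and 14.9 for segment polarity genes. The nuclear chromosomes held 9.99 and 10.

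The Hox genes held 4 thresholded summits in 3 of their 8 loci, beside 27.4% of all genes with one in the locus. Per 100 kb, the Hox loci held 0.804, against 1.04 in the loci of all protein-coding genes. The highest of the 4 was chr3R:16798658-16799047, an intergenic peak 8361 bp past the end of abd-A and 29252 bp from its nearest start. abd-A specifies abdominal segments. The value was 177 (rank 317), with 80.2 in replicate 3 (rank 403) and 89.9 in replicate 4 (rank 330). The nearest start site, 1747 bp away, was that of lncRNA:CR45750. The ranks in the replicates were close, and both were in the top 3.01% of their lists.

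Antp, a Hox gene of the thorax that gives the Antennapedia complex its name, had 2 intronic peaks. The first, chr3R:6936166-6936555, was 3521 bp upstream of its nearest Antp start, with a value of 121 (rank 720), 54.5 in replicate 3 and 61.3 in replicate 4. The second, chr3R:6914299-6914688, was 18346 bp downstream of one, with a value of 92.6 (rank 1262), 47.3 in replicate 3 and 45.8 in replicate 4 (q = 0.04). This second peak ranked 1262 of 1268 and so stood just inside the thresholded list. lab, a Hox gene of the head, had an intronic peak at chr3R:6667269-6667658, 4010 bp upstream of its nearest start, with a value of 98.5 (rank 1111). Its values were 46.6 in replicate 3 and 52.3 in replicate 4.

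The abd-A and first Antp windows are shown as the highest peaks of the bithorax and Antennapedia complexes. Both are 201 bases of the plus strand of the RefSeq Release 6 genome. In the first, over chr3R:16798753-16798953, the capitals mark GAGAG, the GAGA factor element, and CAGGTAG, the Zelda element, both read on the minus strand. In the second, over chr3R:6936261-6936461, they mark TATAAA and GCCAT, the core of the Pho element of Polycomb targets.
abd-A downstream peak: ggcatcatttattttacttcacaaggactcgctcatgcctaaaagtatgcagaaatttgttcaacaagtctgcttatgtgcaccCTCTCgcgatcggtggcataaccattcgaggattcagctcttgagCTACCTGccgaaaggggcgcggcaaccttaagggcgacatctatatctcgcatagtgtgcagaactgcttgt
Antp intron peak: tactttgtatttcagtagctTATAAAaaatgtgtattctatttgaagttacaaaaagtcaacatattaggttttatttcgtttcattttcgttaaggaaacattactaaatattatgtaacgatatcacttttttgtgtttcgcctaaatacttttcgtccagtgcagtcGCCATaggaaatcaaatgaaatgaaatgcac
The abd-A window, at 52.2% A+T, had the lowest A+T share of the 11, and the Antp window had 71.1%.

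**Figure D3:**
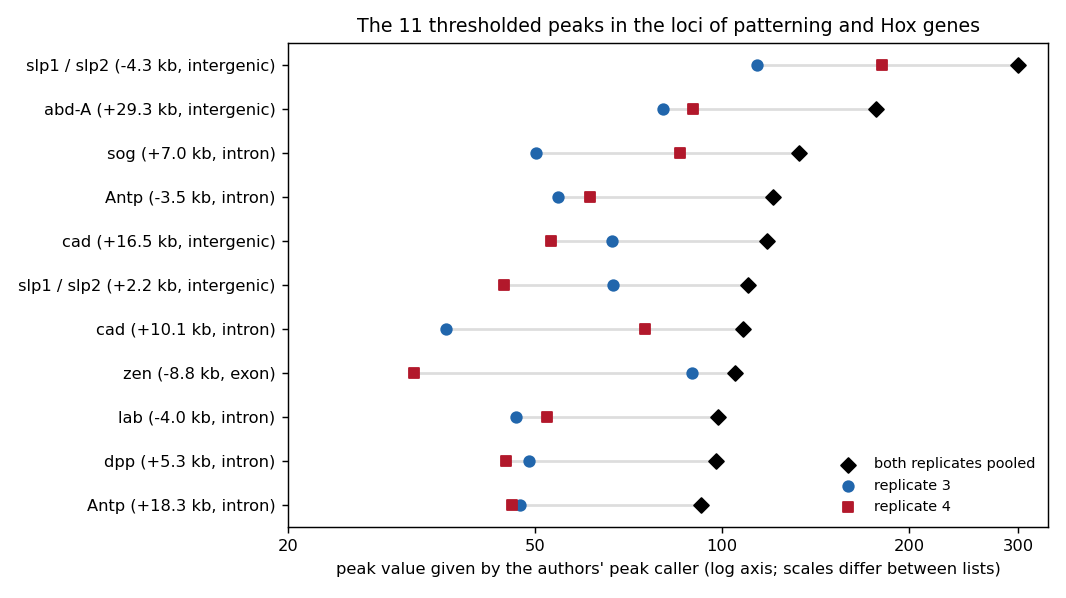
Peak value (horizontal log axis, on the caller's own scale) of the 11 thresholded peaks in the loci of patterning and Hox genes, with the distance to the nearest start of the gene. Diamonds are the pooled list, circles replicate 3 and squares replicate 4, 1 point for each. Replicate values ran from 31.9 to 181. On the log axis the zen peak had the widest gap between the replicates, 89.3 in replicate 3 and 31.9 in replicate 4.

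All 11 thresholded peaks had a summit within 100 bp in both replicate lists, at offsets of 0 to 79 bp, against 96.1% of all 1268. The q-value was 0.05 or less for 11 of 11 in replicate 3 and for 10 of 11 in replicate 4. Ranks ran from 167 to 2007 in replicate 3 and from 47 to 3821 in replicate 4. The rank was better in replicate 3 for 5 peaks and in replicate 4 for 6.

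The 2 Hox complexes differed in their number of peaks. The Antennapedia complex, from lab to Antp over chr3R:6661427-6999228, held 4 thresholded summits in 337.8 kb, or 1.18 per 100 kb. These include the peak in the zen locus, at Ama and lncRNA:CR45593, with a q-value of 0.32 in replicate 4. They are thus not the same 4 as those of the Hox loci, which leave out that peak and include the abd-A peak. The bithorax complex, from Ubx to Abd-B over chr3R:16656623-16972236, held 1 in 315.6 kb, or 0.317 per 100 kb. Among pooled regions at a q-value of 0.05 or less the counts were 12 (3.55 per 100 kb) and 4 (1.27 per 100 kb), beside 1.83 per 100 kb over the nuclear chromosomes. Over all pooled regions they were 32 (9.47 per 100 kb) and 23 (7.29 per 100 kb), beside 7.15. The 12 include regions by bcd and Ama, which fall in the locus of zen and not of a Hox gene. With so few thresholded summits, the contrast between the complexes rests on single peaks and was not tested. The only thresholded peak of the bithorax complex lay between Ubx and abd-A, and Ubx and Abd-B had none in their loci.

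**Figure D4:**
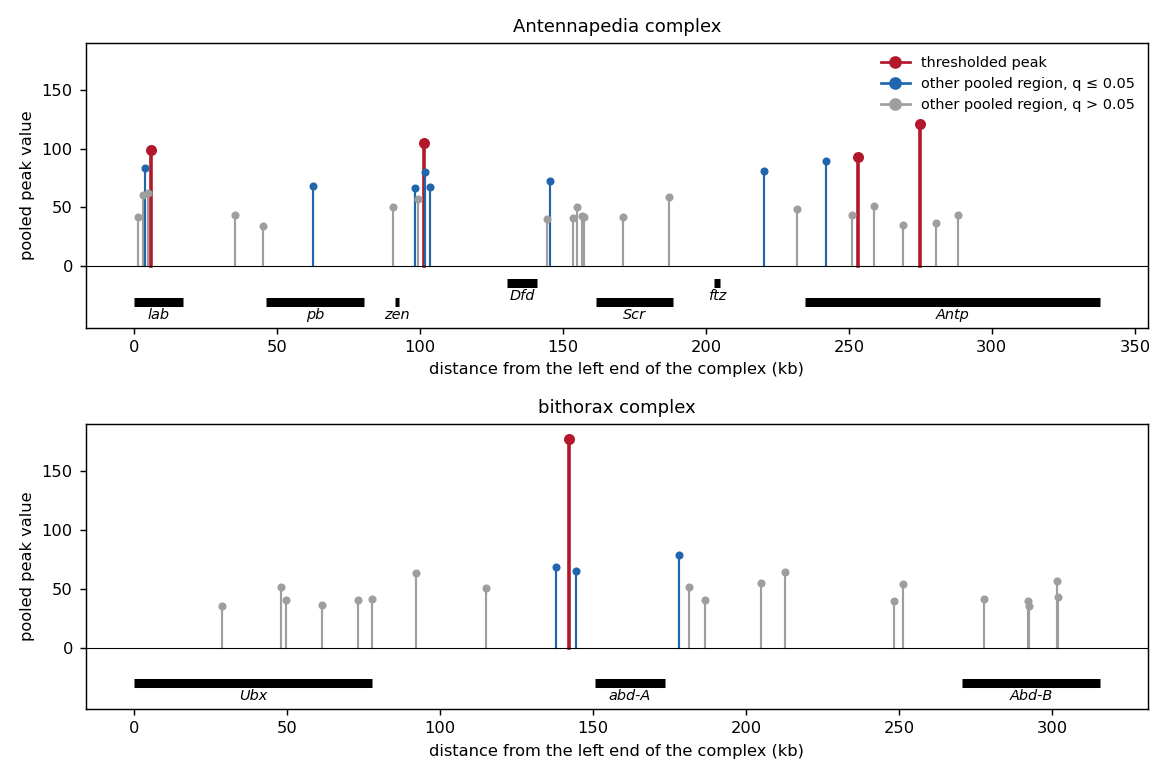
Pooled-list summits along the Antennapedia and bithorax complexes, with the distance in kb from the left end of each complex on the horizontal axis and the pooled value on the vertical axis. Black bars are genes of the list, red stems thresholded peaks, blue stems other regions at a q-value of at most 0.05, and grey stems the rest. There are 4 red stems in the upper panel and 1, at 177, in the lower panel.

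Just below the thresholded list, 12 further pooled regions in member loci had a q-value of 0.05 or less, with values of 65.3 to 89.4. With them, 12 members (31.6%) had such a region in the locus, against 42.3% of all genes, and 6 (15.8%) had it in the body, against 7.58%. The members added were odd, pb and Dfd. In pb, a Hox gene of the mouthparts, the region was intronic at 68.3, with 46.5 in replicate 3 (q = 0.0064) while the nearest replicate 4 summit, 259 bp away, had 26.8 (q = 0.59). For Dfd, a Hox gene of the head, it lay 15159 bp downstream of the start at 72.2, with 34.7 in replicate 3 (q = 0.01) and 30.2 in replicate 4 (q = 0.39). For both genes the region thus had a low q-value in replicate 3 but not in replicate 4.

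The highest of the 12 was an exonic region of 89.4 within Antp, with 51.9 in replicate 4 (q = 0.019). The nearest replicate 3 summit was 156 bp away, within the region, at 39.1 (q = 0.0084). A second intronic region of sog had 84.3, with 42.4 in replicate 3 and 39.1 in replicate 4 (q = 0.094). A second intronic region of lab had 83.5, with 14.8 in replicate 3 (q = 0.85) and 69.6 in replicate 4 (q = 0.013). Of the others in reach of abd-A, the one at 78.4 lay 4797 bp upstream, in an intron of lncRNA:iab8, and the one at 65.3 lay 95 bp from the start of lncRNA:TS16. The region at 66.9, counted for zen, lay 208 bp upstream of bcd, the maternal gene for the anterior gradient. In the loci, 11 of 23 pooled regions (47.8%) at this q-value were in the thresholded list, against 51.7% over the nuclear chromosomes.

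With background regions included, start sites of the members did hold summits, all of them with high q-values. In the pooled list 8 members (21.1%) had a start-site region, against 25.3% of all genes. The members were twi, rho, D, SoxN, lab, Scr, Ubx and Abd-B. Their values ran from 40.9 to 58.9, the best rank was 2945 of 9576, and the q-values ran from 0.1 to 0.65. Scr, the Hox gene of the labial and first thoracic segments, had the highest at 58.9, 54 bp upstream of a start, with 19.3 in replicate 3 (q = 0.41) and 39.6 in replicate 4 (q = 0.087).

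The next values were 54.6 for D and 49.1 for rho, with 34.9 and 32.4 in replicate 4 and the nearest replicate 3 summits 2606 and 1083 bp away. twi had 46.3, with 25.3 in replicate 3, and its nearest replicate 4 summit, 199 bp away, had 20.8 (q = 0.94). SoxN had 42.7, with 37.6 in replicate 4 and the nearest replicate 3 summit 11520 bp away. lab had 41.6, with 17.5 in replicate 3 and 23.6 in replicate 4. Abd-B had 41.3 and Ubx 40.9, Hox genes of the abdomen and of the posterior thorax, with 25 and 26.8 in replicate 4 and the nearest replicate 3 summits 596 and 4293 bp away. Of the 8 pooled start-site regions, those of Scr and lab thus had a summit within 100 bp in both replicates. Of all nuclear pooled regions with no thresholded summit within 100 bp, 37.7% had one in both.

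Replicate 3 had a start-site region in 8 members (21.1%), against 29% of all genes, and replicate 4 had one in 14 (36.8%), against 28.8%. In replicate 3 these were twi, dpp, nub, lab, Dfd, Scr, Antp and Abd-B. In replicate 4 they were tll, odd, prd, en, twi, sna, rho, D, SoxN, pdm2, lab, Scr, Ubx and Abd-B. The lists shared 4 members, twi, lab, Scr and Abd-B, which is 50% of those in replicate 3 and 28.6% of those in replicate 4. Only Scr and lab had summits within 100 bp of each other in the 2 replicates. The same overlap was not computed over all genes. Over the nuclear chromosomes, 32.3% of all replicate 3 summits had a replicate 4 summit within 100 bp. The smallest q-value among the start-site regions of the members was 0.095 in replicate 3 and 0.087 in replicate 4. The shares of the replicates lay on either side of that of all genes.

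No list held a start-site region for 20 of the 38 members. The share of all genes absent from every list was not computed, so this count has no comparison. In single lists, 25.3% (pooled), 29% (replicate 3) and 28.8% (replicate 4) of all genes had a start-site region. The 20 were the gap genes hb, gt, Kr, kni, knrl and hkb, the pair-rule genes eve, ftz, hry, run, slp1, slp2 and opa, the segment polarity genes wg and hh, the dorsoventral genes zen and sog, and cad, pb and abd-A. They included 6 of the 9 members with a thresholded peak in the locus.

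With background regions included, most loci of the members held a summit. In the body, start sites included, a summit was held by 18 members (47.4%) in the pooled list, against 22.6% of all genes, by 16 (42.1%) in replicate 3, against 25.9%, and by 28 (73.7%) in replicate 4, against 33.1%. Counting only body summits over 500 bp from every start site of the gene, 17 members (44.7%) had one in the pooled list, against 15.9% of all genes. The counts were 16 (42.1%) in replicate 3, against 19.2%, and 24 (63.2%) in replicate 4, against 24.7%. In the thresholded list the same 5 members (13.2%) had one, against 2.95%. These shares carry the difference in gene length given above. In the locus it was 35 (92.1%) in the pooled list, against 78.6%, 35 (92.1%) in replicate 3, against 85.8%, and 37 (97.4%) in replicate 4, against 85.8%. The loci without a summit were those of gt, ftz and nub in the pooled list, those of gt, sna and SoxN in replicate 3, and that of run in replicate 4. Per 100 kb, member loci held 8.26 pooled, 12.1 replicate 3 and 13 replicate 4 summits, against 7.15, 9.99 and 10 over the nuclear chromosomes and 7.75, 10.7 and 10.9 over the loci of all protein-coding genes. Antp, the longest member, had 9 pooled, 12 replicate 3 and 17 replicate 4 summits.

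Agreement between the replicates in the member loci was close to that over the nuclear chromosomes. Of 170 replicate 3 summits in the loci, 55 (32.4%) had a replicate 4 summit within 100 bp, against 32.3% over the nuclear chromosomes. Of 182 replicate 4 summits, 55 (30.2%) had a replicate 3 summit, against 32.1%. Among regions at a q-value of 0.05 or less, the shares were 20 of 27 (74.1%, against 70.3%) for replicate 3 and 14 of 17 (82.4%, against 85.4%) for replicate 4. At this distance, most regions of either replicate list had no match in the other, in these loci as over the nuclear chromosomes.

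Motifs within 100 bp of the 11 summits were counted on both strands, beside the same count over all 1268 nuclear thresholded summits. TAATTA was in 3 of 11 (27.3%), against 16.2%. GCCAT was in 3 (27.3%), against 26.2%, TATAAA in 3 (27.3%), against 34.5%, and GAGAG in 2 (18.2%), against 26.3%. CAGGTAG was in 1 (9.09%), against 1.34%. TATCGATA, the DRE, and CACGTG, the E-box, were in none, against 2.6% and 2.52%. The TAATTA copies were in the slp1 downstream, zen and second Antp windows. With 11 windows, each copy moves a share by 9.09 percentage points. A match is a string of letters and not a measured site.

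A further list of genes that act with the members was examined for comparison. It was drawn up with earlier results of these data known, and 55 of its 57 symbols were found. Of these, 8 (14.5%) had a thresholded summit within 500 bp of a start site, against 5.35% of all protein-coding genes. In the body 11 (20%) had one, against 4.37%, and in the locus 27 (49.1%), against 27.4%. These shares were not matched for gene length, and the 11 include long genes such as fz and shn. Among all genes of 10 kb or more, 19% held a thresholded summit in the body. The peak in the bcd locus was the one also counted for zen. The 8 are given with the value of their highest start-site peak. gro, which encodes a corepressor that partners several of the members, had 202, with 109 in replicate 3 and 90.4 in replicate 4. fkh, a forkhead gene of the gut, had 185, with 59.7 in replicate 3 and 131 in replicate 4. Stat92E had 138, with 39.7 in replicate 3 and 93.6 in replicate 4, and cact, which encodes the inhibitor of Dorsal, had 134, with 61.6 in replicate 3 and 66.3 in replicate 4.

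The other 4 were bowl, an odd-related zinc finger gene, tin, the heart homeobox gene, Trl, which encodes the GAGA factor, and cic, which encodes an HMG-box repressor. bowl had 126, with 65 in replicate 4, and the nearest replicate 3 summit, 144 bp away, had 70.6 (q = 0.0064). tin had 115, with 67.8 in replicate 3 and 43.5 in replicate 4. Trl had 98.3, with 27.3 in replicate 3 and 69.7 in replicate 4. That summit lay 288 bp from a Trl start and equally far from a start of CG42507. cic had 94.6, with 58.8 in replicate 3 and 35 in replicate 4. These 8 were named for a thresholded start-site summit, and the thresholded list began at 92.4. Their values thus lie by that choice above the highest pooled start-site value of a member, 58.9 at Scr. The order of these values is therefore no result about the members.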

How the data were processed

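The authors called regions per replicate and on both replicates together, with a control alignment, and derived the thresholded list from these, per the deposited readme texts. The peak value is the score of the authors' caller, and the deposited lists also hold the −log10 of a q-value. No source used here names the aligner or the caller. The 4 lists on dm6 were used. The dm3 lists were not used here.

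Summits were placed with Python 3.11.15 and numpy 2.4.6 against Ensembl release 115 genes (BDGP6.54) of 2L, 2R, 3L, 3R, 4 and X, without transposable elements, and sequences came from the RefSeq Release 6 genome, within whose chromosome lengths all peaks lay. Positions count from 1. A counterpart is the nearest summit within 100 bp. The placement recovered 200 of 200 planted summits on simulated data. Those summits were planted inside the start-site window, so this checks the code for that rule alone. Genes named by rule were members with a thresholded summit, the 10 highest by pooled start-site value (8 had one), and pathway genes with a thresholded start-site summit. The other members, such as odd and hry, are named with their highest pooled value in the locus to account for all 38, a choice made after the values were seen. The members, lists, rules and alternatives were chosen with earlier results of these data known.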

Additional observations from a re-analysis of the deposited data

How the results depend on the processing

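No paired analysis was possible because the 2 samples form 1 group. Of 52 alternative values for 8 results, 32 stayed within the tolerance (1.5-fold for counts, the SD of the leave-one-out values for density and median) and 20 did not. The number of members with a thresholded start-site summit was 0 under all 8 alternatives. These included windows of 200 and 1000 bp (3.49% and 6.46% of all genes) and the 645 highest peaks of the list (2.92%). They also included the highest 1290 regions of 1 replicate alone (5.13% without replicate 3, 5.53% without replicate 4). Some of the 8 only narrow a count that was already 0, and so could return nothing else. They were the 200 bp window, the 645 peaks, start sites of protein-coding transcripts only and the nearest start site only. They are nevertheless counted among the 32 values within the tolerance. Some of the 20 were likewise set by the design. The medians with a replicate left out are on the replicates' own scales, and their SD also set the tolerance for the median. They therefore say nothing about its stability. The 645 peaks could only lower or keep the counts and density, and only raise or keep the median.

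With only those 645 peaks, 4 members and 3 summits remained, at 0.214 per 100 kb and a median value of 177. Pooled regions at a q-value of 0.05 or less gave 23 summits, 1.64 per 100 kb and a median of 89.4. The gene body alone gave 5 members, 6 summits, 0.896 per 100 kb and a median of 103. The density was 0.857 with 5 kb and 0.731 with 20 kb on either side. Leaving out a replicate gave densities of 0.783 to 0.854 and medians of 58 to 61.3, on the replicates' own scales. Pooled start-site members numbered 5 within 200 bp, 0 at a q-value of 0.05 or less, and 8 to 14 with a replicate left out (14 without replicate 3). Alternatives added after seeing the data, which include the length bands (0 members with a summit in the body under 10 kb), left 8 members and 9 summits without peaks at start sites of other genes, and 8 members and 10 summits at a q-value of at most 0.05 in both replicates, which drops the zen peak. The lists hold no read counts, so what depth limits is unknown.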

Other observations

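Outside the 11 thresholded peaks, the letters GCCAT were frequent in the weaker regions of the patterning and Hox loci. Of 105 pooled regions in these loci with no thresholded summit within 100 bp, 50 (47.6%) held GCCAT within 100 bp of the summit, against 31.8% of the 8308 such regions on the nuclear chromosomes. GAGAG was in 28.6% against 23.2%, TAATTA in 11.4% against 12.9% and TATAAA in 22.9% against 25.3%. The regions in the loci were 31.4% intergenic and 20% within 500 bp of a start site, against 17.5% and 34.9%, and their median A+T share was 60.7%, against 59.2%. The median value was 42.9, against 43.7. Many of these regions had high q-values, neighbouring windows can overlap, and the difference in GCCAT was noticed in these data and was not tested.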
